A study of Rattus norvegicus with 6 samples.

Results

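The core circadian clock was followed through 8 of its transcripts in rat kidney: the activators Bmal1 (also called Arntl) and Clock, the period genes Per1, Per2 and Per3, the REV-ERB receptor genes Nr1d1 and Nr1d2, and the output factor Dbp. They were chosen by their Ensembl identifiers in the deposited table of read counts, in which all 8 were found among 28787 gene models, and all 8 were among the 16324 models with enough reads to be tested. The tables hold identifiers without gene names. The names used here came with the list of identifiers, and the reference table of rat genes matched 0 of the identifiers in the tables, so the pairing of names with identifiers could not be checked against it. For the same reason no marker of a kidney cell type could be looked up to check the tissue label, and neither Resp18 nor the cryptochromes, ROR receptors and other clock genes outside the 8 were analysed here.

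Kidney RNA was sequenced from male rats of 7 weeks, with 3 libraries of the control line, Dahl salt-sensitive (Dahl SS), and 3 of Resp18 mutant rats. Dahl SS is an inbred strain that becomes hypertensive on a salty diet, and Resp18 encodes an endocrine protein. All rats of both groups had been moved to a diet with 2% salt at 6 weeks of age and stayed on it for 1 week, so these libraries show the clock under salt loading only. The sources used here do not give the mutant allele, the strain that carries it, the hour at which kidneys were removed, or whether each library came from its own animal. The p-values therefore measure the spread between these libraries, and a difference between the groups may come from any variation that separates the 2 lines. If the hour of removal differed between the groups, its effect could not be told apart from that of the lines.

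The clock is a feedback loop of transcription that runs in nearly every cell and keeps a period of about a day. BMAL1 and CLOCK bind DNA as a pair, at sites called E-boxes, and switch on the Per, Nr1d and Dbp genes. The PER proteins then hold the pair back, the REV-ERB proteins repress Bmal1 and Clock through ROR elements, and DBP drives further rhythmic genes through D-boxes. In the kidney the loop is known for daily rhythms in sodium and water handling, and Per1 is also known as a target of aldosterone. Because each transcript peaks at its own phase, a single sampling finds Bmal1 and Dbp at different points of their cycles.

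The start regions of 4 genes are shown: Bmal1, Per2 and Nr1d1 because their windows held letters of the sites through which the loop acts, and Per1, whose window held none, because it had the largest difference between groups. They are RefSeq windows of build GRCr8, matched by symbol, each running from 250 bases before to 50 bases after an annotated start. The processing notes name another build, Rnor 5.0, so these positions do not apply to the count tables. Capitals mark matches, on either strand, to the E-box CACGTG, its variant CACGTT, the D-box TTATGTAA or the ROR element half-site TAGGTNA. The Bmal1 window lies at chr1:176766078-176766377 on the plus strand, the Per1 window at chr10:54304126-54304425 on the plus strand, and the Per2 window at chr9:99496944-99497243 on the minus strand. For Nr1d1, which has 2 windows, the one at chr10:84229405-84229704 on the minus strand is shown.
Bmal1: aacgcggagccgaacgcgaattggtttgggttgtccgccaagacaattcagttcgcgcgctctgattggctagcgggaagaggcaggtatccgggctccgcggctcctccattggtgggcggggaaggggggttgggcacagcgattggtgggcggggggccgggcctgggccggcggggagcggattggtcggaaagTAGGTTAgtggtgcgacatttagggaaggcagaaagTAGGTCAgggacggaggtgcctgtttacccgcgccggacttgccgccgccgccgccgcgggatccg
Per1: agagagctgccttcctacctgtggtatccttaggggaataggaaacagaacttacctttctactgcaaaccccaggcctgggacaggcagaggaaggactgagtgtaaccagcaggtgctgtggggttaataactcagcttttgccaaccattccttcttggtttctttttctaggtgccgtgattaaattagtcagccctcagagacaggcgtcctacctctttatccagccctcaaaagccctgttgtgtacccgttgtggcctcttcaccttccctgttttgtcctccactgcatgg
Per2: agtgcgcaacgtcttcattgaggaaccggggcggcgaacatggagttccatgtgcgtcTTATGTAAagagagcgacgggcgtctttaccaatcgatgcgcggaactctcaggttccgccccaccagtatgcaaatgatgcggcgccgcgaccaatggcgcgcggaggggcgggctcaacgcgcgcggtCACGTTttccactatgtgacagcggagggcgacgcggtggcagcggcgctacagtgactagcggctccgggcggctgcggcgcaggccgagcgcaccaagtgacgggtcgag
Nr1d1: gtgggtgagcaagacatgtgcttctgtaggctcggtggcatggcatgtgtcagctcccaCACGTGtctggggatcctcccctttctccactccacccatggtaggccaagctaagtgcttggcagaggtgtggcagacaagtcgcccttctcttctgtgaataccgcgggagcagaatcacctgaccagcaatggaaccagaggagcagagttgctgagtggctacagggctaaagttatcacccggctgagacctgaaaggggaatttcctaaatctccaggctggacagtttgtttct

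The Bmal1 window held the ROR half-site at 2 places, as TAGGTTA and TAGGTCA. The Per2 window held a D-box and the E-box variant, and the Nr1d1 window shown held a full E-box, while the other Nr1d1 window held the E-box variant. None of the 4 motifs was found in the windows of Per1, Per3, Nr1d2 and Dbp or in either window of Clock, which says only that these letters are not in these windows. Over all 33469 rat windows of the same length, the E-box was in 6.42%, its variant in 4.83%, the D-box in 0.893% and the ROR half-site in 8.70%. The motifs do not overlap one another in the 4 windows that held any. A match is a run of letters and no measure of binding.

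All 8 transcripts were read in every library, from 115 to 1085 reads each. These counts give a counting error of 3.04% to 9.33%, whereas the variation between libraries that edgeR estimated for the members was 9.19% (Bmal1) to 15.7% (Per3). The libraries held 13427302 to 22854561 counted reads in all. By mean log2 CPM (reads scaled to library size with TMM factors), the members lay between the 35.3th (Per3) and the 70.8th (Bmal1) percentile of tested models. Because kidneys were sequenced whole, fewer cells of a type and less RNA per cell cannot be told apart.

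Levels of different genes were compared in FPKM, the deposited fragments per kilobase and per read depth. Nr1d2 had the highest mean over the 6 libraries, at 18.2 ± 3.35 FPKM (SD, n = 6), and was followed by Dbp at 16.7 ± 1.78, Bmal1 at 14 ± 0.815 and Clock at 10.7 ± 2.29 FPKM. Nr1d1 stood at 9.32 ± 1.08, Per1 at 7.00 ± 1.52, Per2 at 4.26 ± 0.502 and Per3 at 2.30 ± 0.396 FPKM (SD, n = 6). Some neighbours in this order did not differ beyond their spread. Nr1d2 lay above Dbp in 4 of 6 libraries, Dbp above Bmal1 in 5 of 6, and Clock above Nr1d1 in 4 of 6. The rest of the order held in each of the 6 libraries: Bmal1 above Clock, Nr1d1 above Per1, Per1 above Per2, and Per2 above Per3.

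**Figure D1:**
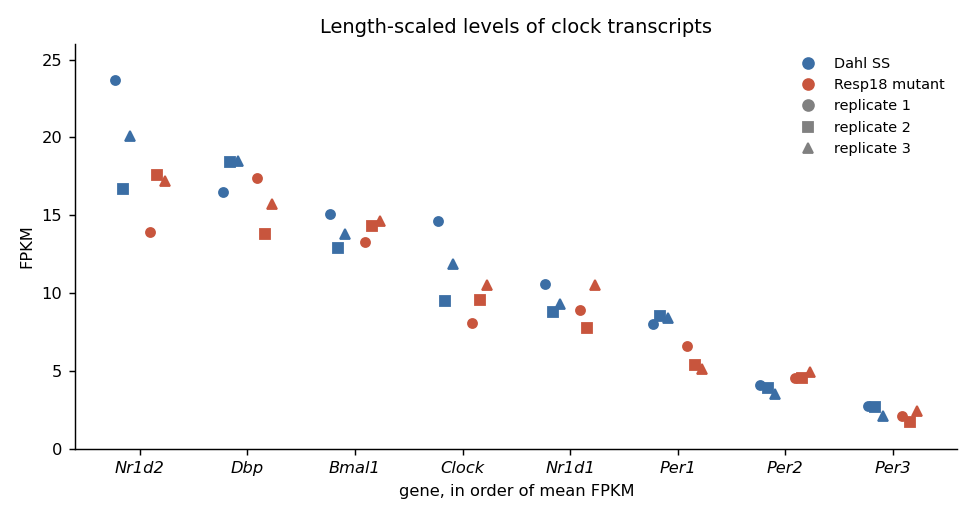
FPKM of the 8 clock transcripts on the y axis, by gene in order of mean FPKM on the x axis, with 1 point per library (blue Dahl SS, red Resp18 mutant, marker shape by replicate). Nr1d2, Dbp and Bmal1 overlap at the top, and the period genes run downward from Per1 to Per3 in every library.

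Set against Dahl SS kidneys, mutant kidneys held less Per1 and more Per2, each without overlap between the groups, while Bmal1 and Nr1d1 were nearly level. Clock and Nr1d2 were lower in mutants by group means, with overlap, and so were Per3 and Dbp. None of the 8 passed edgeR's quasi-likelihood test at an adjusted p of 0.05, where 0.0123% of all tested models did (2 of 16324). DESeq2 also called 0 of the 8, against 0.693% of the models to which it gave an adjusted p.

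At an unadjusted p under 0.05, edgeR gave 4 of the 8, against 10.8% of all tested models. Of these, Per1, Clock and Nr1d2 were lower in mutants, where 5.15% of tested models had such a p and a lower value, and Per2 was higher, where 5.67% did. The same 4 genes had an unadjusted p under 0.05 in limma-voom, where 11.5% of all models had one, and in DESeq2, where 7.52% did. In each limma fit of FPKM only 1 member, Per1, had such a p, against 8.36% to 9.36% of all models. With single libraries left out, edgeR gave 1 to 4 of the 8, against 6.58% to 14.9% of all models. The groups did not overlap in CPM for Per1 and Per2. Of all tested models, 8.47% were lower in mutants without overlap, like Per1, and 8.69% were higher without overlap, like Per2. The median log2 fold change was -0.22 over the 8 and 0.01 over all tested models, and the median absolute log2 fold change was 0.28 against 0.15. The 8 were chosen with earlier results of these data known. The shares and medians set against all models are therefore a description with no test of the 8 as a set.

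Each member's 95% interval, not adjusted for the number of genes, gives a range for its difference between these groups of libraries. For all 8 the interval lay inside a 2-fold change either way, as it did for 83.8% of tested models. For 4 of the 8, namely Bmal1, Per2, Nr1d1 and Dbp, it lay inside 1.5-fold, against 58.8% of tested models.

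**Figure D2:**
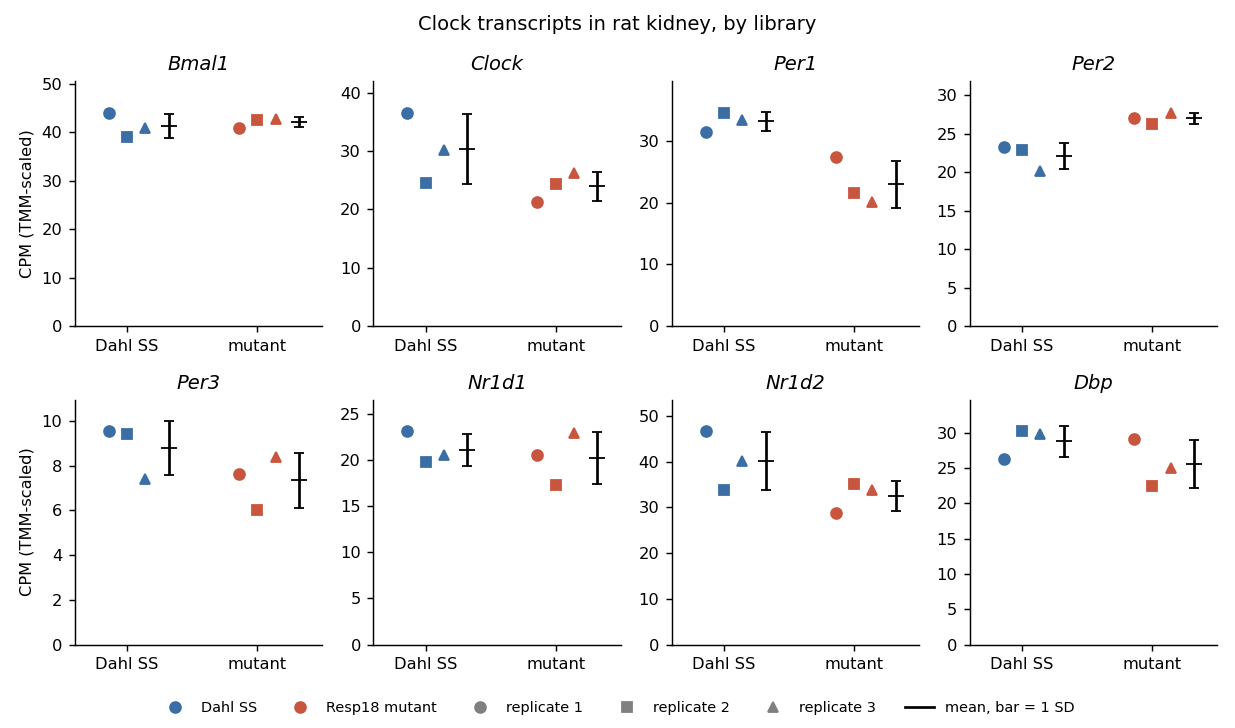
CPM on TMM-scaled library size on the y axis for each clock transcript in each library (blue Dahl SS, red Resp18 mutant, marker shape by replicate), with the mean and 1 SD of each group as a black bar. The groups separate in the panels of Per1, lower in mutants, and Per2, higher in mutants, and overlap in the other 6.

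Per1 (ENSRNOG00000007387), 1 of the PER repressors, had the largest difference of the 8. Its levels were 31.5, 34.5 and 33.4 CPM in Dahl SS replicates 1 to 3, and 27.3, 21.5 and 20.1 CPM in mutant replicates 1 to 3. All mutant libraries lay below all control libraries, and mutant replicate 1 was the nearest to the controls. The reads behind these values were 733, 494 and 544 in controls and 580, 448 and 275 in mutants. The means were 33.1 ± 1.53 and 23.0 ± 3.81 CPM (SD, n = 3), a log2 fold change of -0.52 ± 0.13 (SE), or 1.44-fold lower with a 95% interval of 1.18 to 1.75 (edgeR unadjusted p = 0.00258, adjusted p = 0.299). Its p was the 139th lowest of the 16324.

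Per1 came nearest to a call in DESeq2, with an adjusted p of 0.0531. Without mutant replicate 1, DESeq2 called it at an adjusted p of 0.00704 and a log2 fold change of -0.67, while edgeR gave -0.66 and an adjusted p of 0.57. Without both libraries numbered 1, DESeq2 gave an adjusted p of 0.0059 and edgeR 0.0528, each at a log2 fold change of -0.70. The DESeq2 fits with left-out libraries were added after the data had been seen. Mutant replicate 1 was the mutant library nearest to the controls in Per1, so leaving it out was bound to enlarge the difference. Over 25 alternatives the adjusted p of Per1 lay between 0.0059 and 0.825, and its unadjusted p was under 0.05 in all 25, with a log2 fold change between -0.70 and -0.44.

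Per2 (ENSRNOG00000020254), which acts beside it in the repressor complex, differed in the opposite direction. Dahl SS replicates 1 to 3 held 23.3, 22.9 and 20.2 CPM of Per2, and mutant replicates 1 to 3 held 27.0, 26.3 and 27.7 CPM. All mutant libraries lay above all controls, and the 3 mutant values were close to one another. The means were 22.1 ± 1.71 and 27.0 ± 0.727 CPM (SD, n = 3), a log2 fold change of 0.29 ± 0.10 (SE), or 1.22-fold higher with a 95% interval of 1.05 to 1.42 (edgeR unadjusted p = 0.0172, adjusted p = 0.386). The log2 fold change stayed between 0.22 and 0.37 over 25 alternatives, of which 14 had an unadjusted p under 0.05 and 0 an adjusted one. At 5760 bases Per2 has the longest model of the 8. The 572 tested models of nearly its length had a median log2 fold change of -0.09, opposite in sign to that of Per2. The same median was -0.05 for Per1, -0.05 for Per3 and -0.02 for Clock, of the same sign as these members. It was -0.04 for Bmal1, 0.01 for Nr1d2 and 0.03 for Dbp, opposite in sign to these, and 0 for Nr1d1.

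Per3 (ENSRNOG00000018413), the third of the period genes and the least abundant member, was at 9.53, 9.43 and 7.42 CPM in Dahl SS replicates 1 to 3 and at 7.62, 6.00 and 8.41 CPM in the mutants. The groups overlapped, since Dahl SS replicate 3 lay below 2 mutant libraries. Its log2 fold change was -0.27 ± 0.18 (SE), with a 95% interval from -0.67 to 0.13 (edgeR unadjusted p = 0.165, adjusted p = 0.573). Without mutant replicate 2 it was -0.13 (unadjusted p = 0.481), and without Dahl SS replicate 3 or mutant replicate 3 it was -0.37.

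Of the activators, Bmal1 (ENSRNOG00000014448) was nearly level. It was at 44.0, 39.0 and 40.8 CPM in Dahl SS replicates 1 to 3 and at 40.9, 42.6 and 42.7 CPM in the mutants. The mutant values lay inside the range of the controls. For Bmal1 the log2 fold change was 0.03 ± 0.09 (SE), and its 95% interval, from -0.17 to 0.22, allows a fold change from 0.889 to 1.17 (edgeR unadjusted p = 0.762, adjusted p = 0.919).

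Clock (ENSRNOG00000002175), which codes for the partner of BMAL1, was at 36.5, 24.5 and 30.2 CPM in Dahl SS replicates 1 to 3 and at 21.3, 24.4 and 26.2 CPM in the mutants. Dahl SS replicate 1 was the highest and mutant replicate 1 the lowest of the 6, and Dahl SS replicate 2 lay among the mutants. The log2 fold change was -0.35 ± 0.15 (SE), with a 95% interval from -0.69 to -0.01 (edgeR unadjusted p = 0.0461, adjusted p = 0.457). Without both libraries numbered 1 it was -0.12 (unadjusted p = 0.383), without Dahl SS replicate 1 alone -0.19 and without mutant replicate 1 alone -0.26. It was larger, at -0.48 (unadjusted p = 0.00668), without Dahl SS replicate 2 and, at -0.42 (unadjusted p = 0.0454), without mutant replicate 3. Over 25 alternatives the value for Clock ranged from -0.49 to -0.12, with an unadjusted p under 0.05 in 11.

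Among the REV-ERB receptors, which repress Bmal1, Nr1d2 (ENSRNOG00000046912) ordered the libraries much as Clock did. It was at 46.6, 33.9 and 40.1 CPM in Dahl SS replicates 1 to 3 and at 28.8, 35.1 and 33.7 CPM in the mutants. Dahl SS replicate 1 was again the highest and mutant replicate 1 the lowest, and Dahl SS replicate 2 overlapped with the mutants. The log2 fold change was -0.31 ± 0.13 (SE), with a 95% interval from -0.61 to -0.01 (edgeR unadjusted p = 0.0458, adjusted p = 0.457), and it was -0.10 without both libraries numbered 1, -0.19 without Dahl SS replicate 1 alone and -0.22 without mutant replicate 1 alone. It was -0.41 (unadjusted p = 0.0105) without Dahl SS replicate 2 and -0.36 (unadjusted p = 0.0483) without mutant replicate 2. Over 25 alternatives the value for Nr1d2 ranged from -0.42 to -0.10, with an unadjusted p under 0.05 in 11.

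Those 2 libraries also stood at the ends of a trend with model length over all tested models. Deviations from the mean of the 6 libraries were correlated with model length at a Spearman rho of 0.369 for Dahl SS replicate 1 and -0.373 for mutant replicate 1. The value lay between -0.17 and 0.0394 in the other 4; these are correlations across models, which are not independent replicates. With the trend removed, the log2 fold changes of Clock and Nr1d2 were -0.34 and -0.32, against -0.35 and -0.31 before. That of Per1 was -0.47 and that of Per2 was 0.37. Tested models of nearly the length of Clock and Nr1d2 had median log2 fold changes of -0.02 and 0.01. Removing the trend could therefore move the values of these 2 genes only little. What set Dahl SS replicate 1 and mutant replicate 1 apart was not tested.

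Nr1d1 (ENSRNOG00000009329), the other REV-ERB gene and a direct target of the activator pair, was at 23.1, 19.8 and 20.5 CPM in Dahl SS replicates 1 to 3 and at 20.5, 17.3 and 22.9 CPM in the mutants. The groups overlapped throughout. Its log2 fold change was -0.07 ± 0.13 (SE), with a 95% interval from -0.36 to 0.22 (edgeR unadjusted p = 0.59, adjusted p = 0.842).

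Dbp (ENSRNOG00000021027), a PAR bZIP factor that carries the rhythm to other genes, was at 26.3, 30.2 and 29.9 CPM in Dahl SS replicates 1 to 3 and at 29.2, 22.5 and 25.0 CPM in the mutants. Mutant replicate 1 lay among the controls, and Dahl SS replicate 1 was the lowest control. The log2 fold change was -0.17 ± 0.12 (SE), with a 95% interval from -0.44 to 0.10 (edgeR unadjusted p = 0.195, adjusted p = 0.594). Without both libraries numbered 1 the value for Dbp was -0.34 (edgeR unadjusted p = 0.0113, adjusted p = 0.386), without mutant replicate 1 alone -0.27, and without mutant replicate 2 it was -0.08 (unadjusted p = 0.56). Over 25 alternatives it ranged from -0.35 to -0.08.

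**Figure D3:**
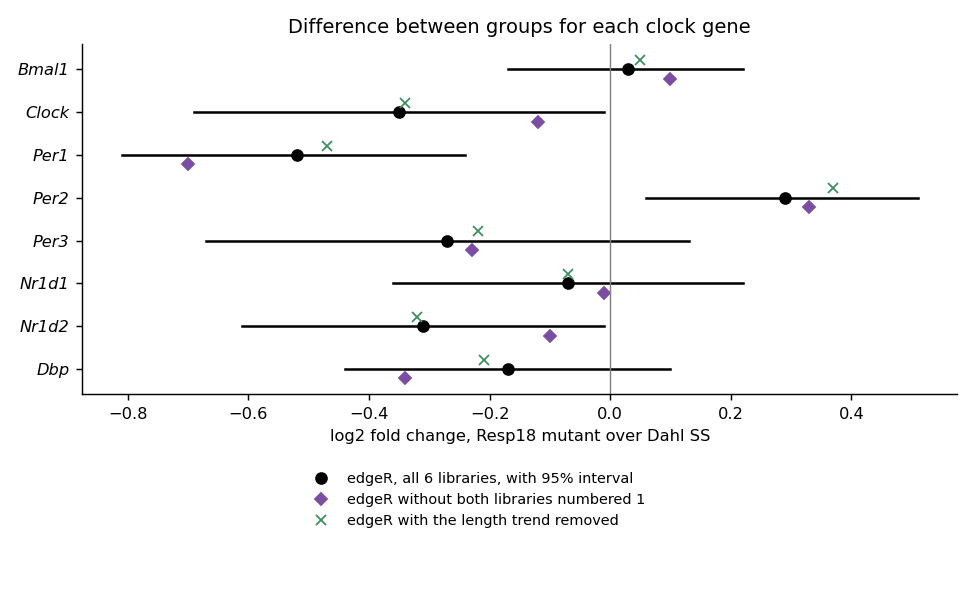
Log2 fold change of Resp18 mutant over Dahl SS on the x axis for each clock gene on the y axis, with black points and lines for edgeR on all 6 libraries and its 95% interval, purple diamonds without both libraries numbered 1, and green crosses with the length trend removed. Per1 and Per2 stay on opposite sides of 0 in each setting drawn, and Clock and Nr1d2 move toward 0 without those 2 libraries.

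Ratios between members inside a library do not depend on how libraries are scaled, and were formed for all 28 pairs of the 8 genes after their levels had been seen. The groups did not overlap in 12 of the 28 ratios, where 17.0% of all pairs of tested models did not overlap. Pairs that share a gene are not independent, and 10 of the 12 hold Per1 or Per2, as do 13 of all 28. Per1 over Per2 moved most: it was 1.94, 2.17 and 2.38 in Dahl SS replicates 1 to 3, and 1.45, 1.18 and 1.04 in mutant replicates 1 to 3, in FPKM over FPKM. Every kidney library thus held more Per1 than Per2 per length, by 2.16 ± 0.219 times in controls and 1.23 ± 0.209 times in mutants (SD, n = 3). The pair was picked for its difference, so these values are a description with no test.

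The ratio of Per2 to each of the other 7 members was higher in all mutant libraries than in all controls. By group means the smallest difference was against Bmal1, where the ratio was 1.19 times as high in mutants. The largest was against Per1, where the inverse ratio, Per1 over Per2, was 1.76 times as high in controls. Per2 by itself was higher in mutants without overlap, and 6 members had a log2 fold change below 0, so these ratios largely restate those differences. The share of 17.0% is of all pairs, and none was computed for pairs with a model that separates by itself. Set against Bmal1, whose CPM varied least between libraries (1.13-fold from lowest to highest), Per2 was at 0.274, 0.303 and 0.255 in Dahl SS replicates 1 to 3 and at 0.341, 0.318 and 0.335 in the mutants. The ratio of Per1 to Dbp was 0.486, 0.463 and 0.452 in Dahl SS replicates 1 to 3 and 0.379, 0.388 and 0.326 in the mutants. Relative to Dbp, another target of the activator pair, Per1 was thus lower in all mutant libraries than in all controls. Per1 was also lower without overlap relative to the targets Per2 and Nr1d1. Its ratios to the targets Per3 and Nr1d2 overlapped between the groups, so Per1 did not separate from every other target. Per1 over Dbp was picked from the ratios formed, so its values are a description with no test.

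By their ratio, the activator genes stood further apart in the mutants. Bmal1 was nearly level, so the ratio mostly restates the Clock difference. In edgeR that log2 fold change went from -0.35 to -0.12 without both libraries numbered 1. Bmal1 over Clock was 1.03, 1.36 and 1.16 in Dahl SS replicates 1 to 3 and 1.64, 1.5 and 1.4 in the mutants, without overlap but with Dahl SS replicate 2 close to mutant replicate 3. Nr1d2 and Clock instead kept nearly the same ratio in every library. It was 1.62, 1.76 and 1.69 in Dahl SS replicates 1 to 3 and 1.72, 1.83 and 1.64 in the mutants, a coefficient of variation of 4.54% over the 6 libraries and the smallest of the 28 pairs. How many of all model pairs vary as little was not counted. Both pairs in this paragraph were picked from the 28, so their values are a description with no test. Clock itself ranged 1.71-fold and Nr1d2 1.62-fold between the highest and lowest library by CPM.

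**Figure D4:**
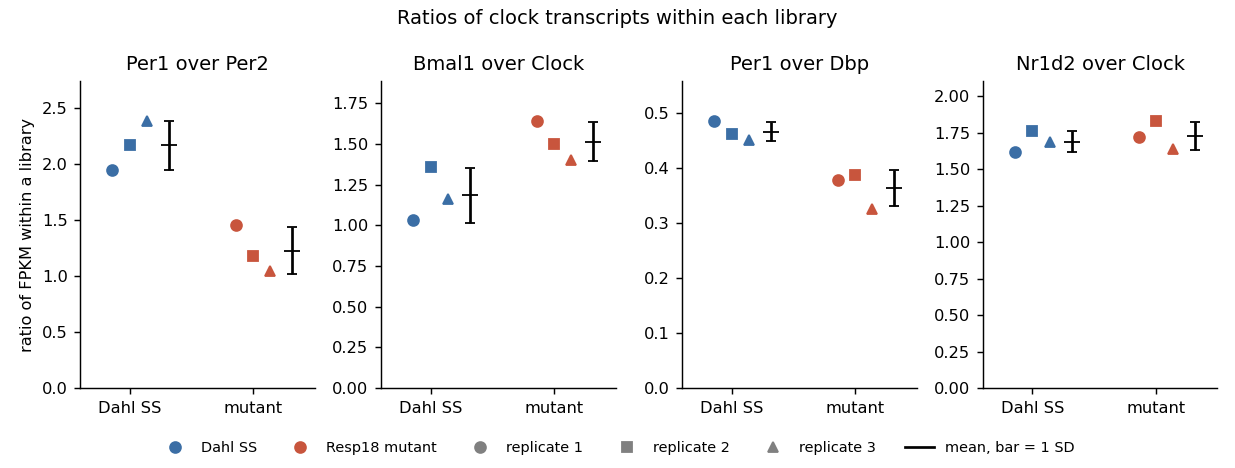
Ratio of FPKM within each library on the y axis for 4 pairs of clock genes, by group on the x axis (blue Dahl SS, red Resp18 mutant, marker shape by replicate, black bar for the mean and 1 SD). Per1 over Per2 and Per1 over Dbp are lower and Bmal1 over Clock is higher in mutants, and Nr1d2 over Clock lies between 1.62 and 1.83 in all 6 libraries.

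The members also differed in how steady they were among libraries of 1 group. The pooled within-group SD of log2 CPM was 0.07 for Bmal1 and 0.08 for Per2, lower than in most models of like abundance (the 14.1th and 15.1th percentile). It was 0.23 for Clock and 0.19 for Nr1d2, at the 85.7th and 79.9th percentile. Per1, Per3, Nr1d1 and Dbp lay between the 59.8th and the 69.1th percentile. The median within-group SD was 0.17 over the 8 and 0.18 over all tested models.

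By likeness of log2 CPM over the 6 libraries, the model nearest to Bmal1 among 11887 of at least 5 CPM was ENSRNOG00000011991 (Pearson r = 0.998), and the one nearest to Dbp was ENSRNOG00000025764 (r = 0.991). Both were picked as the highest of all models searched, so the values are a description without a test, and 41 and 20 models exceeded r = 0.95 with Bmal1 and with Dbp. Their names are not in the tables.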

How the data were processed

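The authors deposited raw read counts and FPKM values, each as a table by gene model. Per the submitters' processing notes, the tools and build were CASAVA 1.8, HISAT2 2.1.0, HTSeq 0.6.1 and Rnor 5.0, without roles. How strand and multiply matching reads were handled is not known here. NEBNext Ultra libraries used 3 ug of RNA, per the labels' protocols. Model lengths were recovered from count and FPKM.

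Counts were analysed with edgeR 4.0.16 in R 4.3.3: filterByExpr (minimum count 10, minimum total 15), TMM scaling, the quasi-likelihood F test on group over all 6 libraries, and Benjamini-Hochberg adjustment over 16324 models. SE is the log2 fold change over the square root of F. The fits were tested on simulated data. Models of nearly the same length are within 0.05 in log10 length, and models of like abundance within 0.5 in mean log2 CPM (prior count 2). DESeq2 1.42.0, limma 3.58.1 (voom, and log2 FPKM with a pseudocount of 1 or 0.1), other scalings and filters, a replicate block, removal of a loess trend with length, and left-out libraries were alternatives. DESeq2 with left-out libraries was added after seeing the data. The named genes were the 8 members, and for Bmal1 and Dbp the most similar model each. Planned lists of further clock genes and cell type markers were not used, since identifiers lacked names. The members and lists were chosen with earlier results of these data known.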

Additional observations from a re-analysis of the deposited data

How the results depend on the processing

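The count of clock members called was 0 under every edgeR and limma alternative and under DESeq2 on all libraries. With DESeq2 it was 1 (Per1) without mutant replicate 1 and 1 without both libraries numbered 1, and 0 with any other library left out. Each of the 8 kept its direction except Bmal1, at -0.01 (edgeR) and -0.02 (DESeq2) without Dahl SS replicate 2, and Nr1d1, at 0.04 and 0.03 without mutant replicate 2. With single libraries left out, edgeR put Bmal1 between -0.01 and 0.08 and Nr1d1 between -0.17 and 0.04. Over all models, the 2 calls of edgeR compare with 106 by DESeq2, 22 by edgeR without both libraries numbered 1 (97 by DESeq2), 1 by limma-voom, and 1 by each limma fit of FPKM, whether log2(FPKM + 1), log2(FPKM + 0.1) or unfiltered. Leaving out single libraries gave edgeR 1 to 13 calls. The value was 13 without the first Dahl SS library, 1 without the second and 6 without the third mutant library. It gave DESeq2 66, 167 and 35 without Dahl SS replicates 1 to 3, and 31, 89 and 48 without mutant replicates 1 to 3. The cause was not tested. Replicate numbers are not read as pairs, because the sample titles number the libraries within each group and name no pairs. Deviations of libraries sharing a number correlated at -0.274, -0.144 and -0.00176. These are correlations across models, which are not independent replicates, so they cannot decide whether libraries were paired. A fit with the replicate block called 2 of all models and 0 of the members, and 1 member, Per1, had an unadjusted p under 0.05 (0.00934), against 4 without the block. That p was reached by 885 of all models with the block and 1767 without. Alternatives for the further clock genes were not run. Depth limits Per3 most, with 115 to 222 reads.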
